A study of Homo sapiens with 30 samples.

Results

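A set of 10 genes stood at 5 FPKM or more in every column from human embryonic stem cells (hESC) to day 10 (D10) of heart muscle differentiation and, in both later columns, at less than that lowest value divided by 4. They are L1TD1, SLC7A3, HMGA1, GPR19, LIN28B, NR6A1, DPPA4, SALL4, ABRACL and ZNF695. FPKM is the number of fragments scaled by transcript length and library size. The rule asks that the lowest of the 9 columns from hESC to D10 be at least 5 FPKM and at least 4 times the higher of D15 and cardiomyocytes. Of the 41495 entries of the time-course table, 7968 met the floor and 15 met both conditions, which is 0.188% of the 7968. The rule leaves 5 of the 15 out by name: LIN28A, TRIM71, TTN-AS1, MT-RNR1 and RP11-301L7.1. MT-RNR1 was listed at 18389 FPKM at D10 and at 0 at D15 and in cardiomyocytes, and TTN-AS1 at 43.3, 0 and 0. Whether the late columns were quantified like the early ones is not given in the sources used here and was not tested. The working description of the set as genes kept to D10 holds only in the sense of the floor, since 9 of the 10 were lower at D10 than in hESC. The genes were chosen by their time-course values, so those values are given as a description and no test is attached to them.

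Early embryonic cells hold a group of proteins that differentiated tissues mostly lack. Best known among them is the LIN28 family, RNA-binding proteins that stop the maturation of let-7 microRNAs. let-7 in turn lowers the messenger RNAs of LIN28 itself and of the HMGA chromatin proteins, so each side of this pair holds the other down. Chromatin and DNA-binding proteins of the pluripotent state, such as DPPA4 and SALL4, are also mostly silent in adult tissues, and several genes of both groups return in tumours.

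RNA came from H7, a line of human embryonic stem cells, and from cells derived from it. The 11 groups of the time course were hESC and the cultures of D1, D2, D3, D4, D5, D6, D8, D10 and D15, followed by cardiomyocytes of day 31 that had been purified on a Percoll density gradient. Differentiation used 12 µM CHIR99021, a GSK3 inhibitor that activates WNT signalling, for 24 hours, and then 5 µM IWP4, which blocks WNT secretion, for 2 days. A further 4 groups were sorted: PMESO (ROR2-positive) and ROR2-negative cells of D3, and CMESO (ROR2-positive, PDGFRa-positive) and ROR2-positive, PDGFRa-negative cells of D4. Each group had 2 libraries, but each is represented by a single FPKM value, which leaves its error and the sequencing depth unknown. All groups come from 1 cell line, and the D15 cultures were not purified.

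Cardiomyocyte and pluripotent markers fit the labels of the columns the set depends on, but the purified cardiomyocytes also held markers of other cells. All 8 cardiomyocyte markers were at 1 FPKM or more at D10, D15 and in cardiomyocytes, with a summed level of 3270, 6943 and 10171 FPKM. The 7 stromal markers summed to 966, 3425 and 1118 FPKM in the same columns. The 4 pluripotent markers (POU5F1, NANOG, SOX2 and TDGF1) summed to 1522 FPKM in hESC, 5.93 at D10, 6.36 at D15 and 3.61 in cardiomyocytes. At D10, D15 and in cardiomyocytes, endoderm and liver markers summed to 34.9, 35.9 and 44.0 FPKM, and neural markers to 14.1, 15.3 and 14.6. Epicardial markers summed to 20.4, 19.1 and 12.8, and endothelial markers to 6.02, 11.8 and 3.53. ALB, a liver marker, stood at 17.8 FPKM in cardiomyocytes, against 0.952 at D15. The cultures are mixtures, so fewer cells that hold a transcript and less transcript per cell cannot be told apart.

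**Figure D1:**
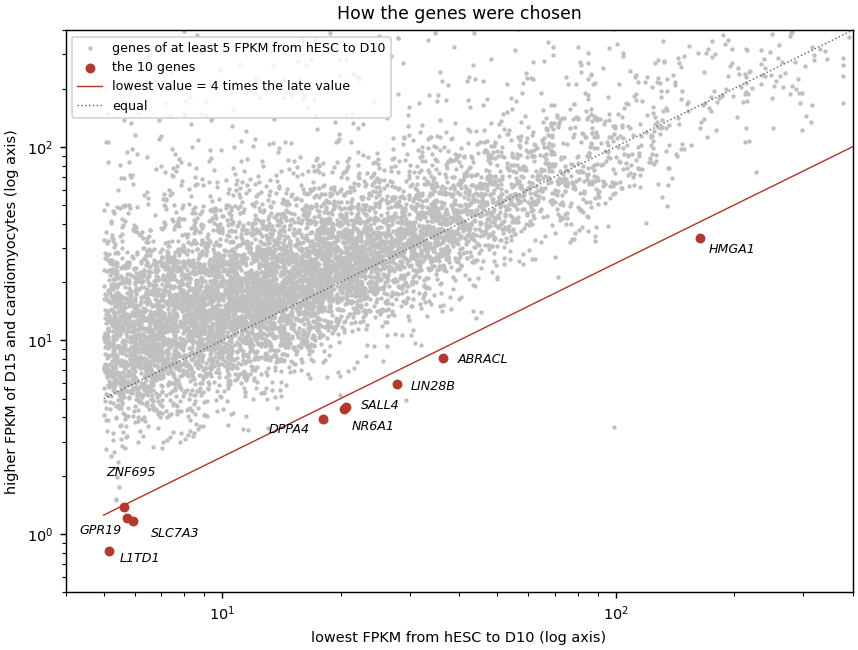
Each point is a gene with at least 5 FPKM from hESC to D10. The horizontal axis is the lowest FPKM of those 9 columns, the vertical axis the higher FPKM of D15 and cardiomyocytes, both logarithmic; genes beyond the axes are not drawn. The 10 red genes lie under the solid line that marks the 4-fold condition, from L1TD1 at 5.15 FPKM to HMGA1 at 164 FPKM on the horizontal axis.

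Both conditions cut through a continuous range of values. The genes nearest the 4-fold line inside it were ZNF695, with a ratio of 4.11, and ABRACL, with 4.49. CBX2 (3.81) and FAM64A (3.71) lay just outside. L1TD1 (lowest value 5.15 FPKM) and ZNF695 (5.64 FPKM) were nearest the floor, and NKAIN1 (4.84 FPKM) and SOX2 (3.46 FPKM) met the ratio but missed the floor. Scaling matters as well. When every column was divided by its median ratio to the geometric mean of 12149 genes of at least 1 FPKM throughout, the factor of D15 was 0.772 and that of D10 0.986, and L1TD1, HMGA1 and NR6A1 alone still met both conditions.

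LIN28B, the second member of the LIN28 family, was the one gene of the set that was lowest in hESC within the early columns. Its level was 27.7 FPKM in hESC, 51.1 at D1, 49.4 at D2, 54.9 at D3, 39.0 at D4, 44.3 at D5, 65.2 at D6, 53.2 at D8, 34.6 at D10, 5.93 at D15 and 5.50 in cardiomyocytes. It thus peaked at D6, when cardiomyocyte markers already summed to 1157 FPKM, and the highest of the 9 early values was 2.35 times the lowest, the narrowest range of the 10 genes. D15 stood at 17.2% of D10 and cardiomyocytes at 15.9%. LIN28A, left out by the rule, took another course: it was highest in hESC at 708 FPKM, stood at 99.0 at D10, and was at 3.57 at D15 and 1.49 in cardiomyocytes. LIN28B lies at chr6:105404923-105531207 (hg19), and an antisense RNA, LIN28B-AS1, overlaps its exons in GENCODE 29. Whether counting used the strand is not given in the sources used here, so reads of the pair may be mixed.

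HMGA1, an AT-hook protein that bends and opens chromatin, was by far the most abundant of the set after hESC. It stood at 632 FPKM in hESC, 536 at D1, 468 at D2, 327 at D3, 207 at D4, 240 at D5, 282 at D6, 210 at D8, 164 at D10, 27.2 at D15 and 33.7 in cardiomyocytes. After a decline to D4 the level was uneven but never under 164 FPKM before D15. In log2(FPKM + 1), HMGA1 differed most of the set between D15 and D10, by -2.54, and by -2.20 after rescaling. In plain FPKM ratios L1TD1 fell more, 6.31-fold against 6.01-fold for HMGA1. Even so, HMGA1 at 33.7 FPKM kept the highest level of the set in cardiomyocytes. GENCODE 29 names 8 HMGA1 pseudogenes, and how reads shared with them were assigned is not given, which leaves the level uncertain.

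L1TD1, an RNA-binding protein that derives from the first reading frame of a LINE-1 element and is found with LIN28 in stem cells, was highest at D1. Its level was 80.8 FPKM in hESC, 177 at D1, 153 at D2, 69.4 at D3, 23.7 at D4, 11.8 at D5, 9.49 at D6, 5.97 at D8, 5.15 at D10, 0.817 at D15 and 0.709 in cardiomyocytes. The column was lower than the one before it at 7 of the 8 steps up to D10, and the range from D1 to D10 was 34.3-fold. L1TD1 (chr1:62660503-62678000, hg19) met the floor by the smallest margin and the ratio by the largest, 6.31. A short RNA annotated as RF00019 shares an exon with it on the same strand.

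The tie to let-7 can be looked for in the transcripts. All 9 human let-7 family members looked at share the seed, bases 2 to 8, which is shown in capitals in the mature sequences (RefSeq, GRCh38.p14). They are printed because the match to the seed is what was searched for.
let-7a-5p: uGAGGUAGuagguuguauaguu
let-7b-5p: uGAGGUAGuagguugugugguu
let-7g-5p: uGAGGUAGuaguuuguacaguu
miR-98-5p: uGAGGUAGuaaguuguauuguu
The heptamer CTACCTC, which pairs with this seed, occurred in the 3′ UTR of 4 of the 10 genes, counted in 1 principal transcript a gene (GENCODE 29). NR6A1 held 5 copies in 5430 bases, LIN28B 4 in 4549, HMGA1 1 in 1347 and SALL4 1 in 1934. Over all 19559 genes with such a transcript, 8.33% held the heptamer, but longer 3′ UTRs hold it more often. Of genes with a 3′ UTR at least as long as that of NR6A1, 37.2% held it, and the share was 33.2% for the length of LIN28B, 20% for SALL4 and 17.3% for HMGA1. NR6A1 and LIN28B hold 9 of the 11 copies. DPPA4 and ZNF695, with 1847 and 1644 bases, held no copy, where 19.6% and 18.8% of genes that long did. These matches are letters in an annotated sequence, not measured sites, and the search was added after the members were known.

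A few of the matches are printed with the 15 bases before them and 1 after, on the transcript's strand and in GRCh38 coordinates, capitals marking the heptamer. The LIN28B and NR6A1 copies shown are those followed by A, the base that extends a match.
LIN28B site 1, chr6:105078812-105078834: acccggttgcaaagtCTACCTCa
LIN28B site 3, chr6:105081421-105081443: gtttacagcaaaaggCTACCTCa
NR6A1 site 1, chr9:124522310-124522332: tgttgacaaagatgaCTACCTCa
NR6A1 site 2, chr9:124521339-124521361: aaggggggctttaaaCTACCTCa
HMGA1 site 1, chr6:34245829-34245851: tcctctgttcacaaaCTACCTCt
SALL4 site 1, chr20:51782923-51782945: aaagctttaatttatCTACCTCa

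DPPA4, a chromatin protein of pluripotent cells, showed the steepest early course. It stood at 714 FPKM in hESC, 284 at D1, 249 at D2, 122 at D3, 64.0 at D4, 50.3 at D5, 49.4 at D6, 25.6 at D8, 18.0 at D10, 3.92 at D15 and 0.789 in cardiomyocytes. Every column was lower than the one before it. D10 held 2.52% of the hESC level, so most of the loss of DPPA4 came before the step the set is named for. It was also the one gene of the set that was lower by more than 1 in log2(FPKM + 1) in cardiomyocytes than at D15 (-1.46). DPPA4 lies at chr3:109044988-109056419 (hg19).

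SALL4, a zinc finger transcription factor of stem cells and of the developing limb, was flatter. Its level was 50.6 FPKM in hESC, 67.2 at D1, 59.4 at D2, 54.5 at D3, 46.5 at D4, 41.1 at D5, 30.3 at D6, 22.3 at D8, 20.6 at D10, 4.51 at D15 and 2.71 in cardiomyocytes. SALL4 at D10 stood at 40.8% of its hESC level, more than any other of the set but LIN28B. SALL4 (chr20:50400581-50419059, hg19) has 5 named pseudogenes in GENCODE 29, with the same limit as for HMGA1.

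NR6A1, the germ cell nuclear factor, is an orphan nuclear receptor that in mouse embryos represses Pou5f1 during gastrulation. It was even until D6: 61.0 FPKM in hESC, 65.0 at D1, 79.2 at D2, 60.7 (D3), 62.1 (D4), 67.9 (D5) and 65.5 (D6). Then it stood at 39.2 FPKM at D8, 20.4 at D10, 3.90 at D15 and 4.44 in cardiomyocytes. Its D10 value was 31.1% of its D6 value, the lowest such share in the set, so the decline was under way before D15. The locus is chr9:127279554-127535206 (hg19).

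The remaining 4 genes have less studied roles. SLC7A3, a membrane carrier of cationic amino acids (chrX:70145432-70150975, hg19), stood at 6.93 FPKM at D4, against 26.4 at D3, in a range of 104 FPKM in hESC to 5.93 at D10. D15 was at 1.17 FPKM and cardiomyocytes at 0.693. GPR19, an orphan G protein-coupled receptor (chr12:12813825-12849141, hg19), ranged from 19.0 FPKM in hESC to 5.72 at D10, with 1.21 at D15 and 0.637 in cardiomyocytes. ABRACL, a small protein tied to actin dynamics (chr6:139349819-139364439, hg19), was highest at D1 (211 FPKM) and stood at 36.4 at D10, 7.94 at D15 and 8.11 in cardiomyocytes. ZNF695, a zinc finger protein, ranged from 24.5 FPKM at D1 to 5.64 at D10, with 1.11 at D15 and 1.37 in cardiomyocytes. ZNF695 shares exons with the annotated read-through gene ZNF670-ZNF695, so its reads cannot be assigned with certainty.

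**Figure D2:**
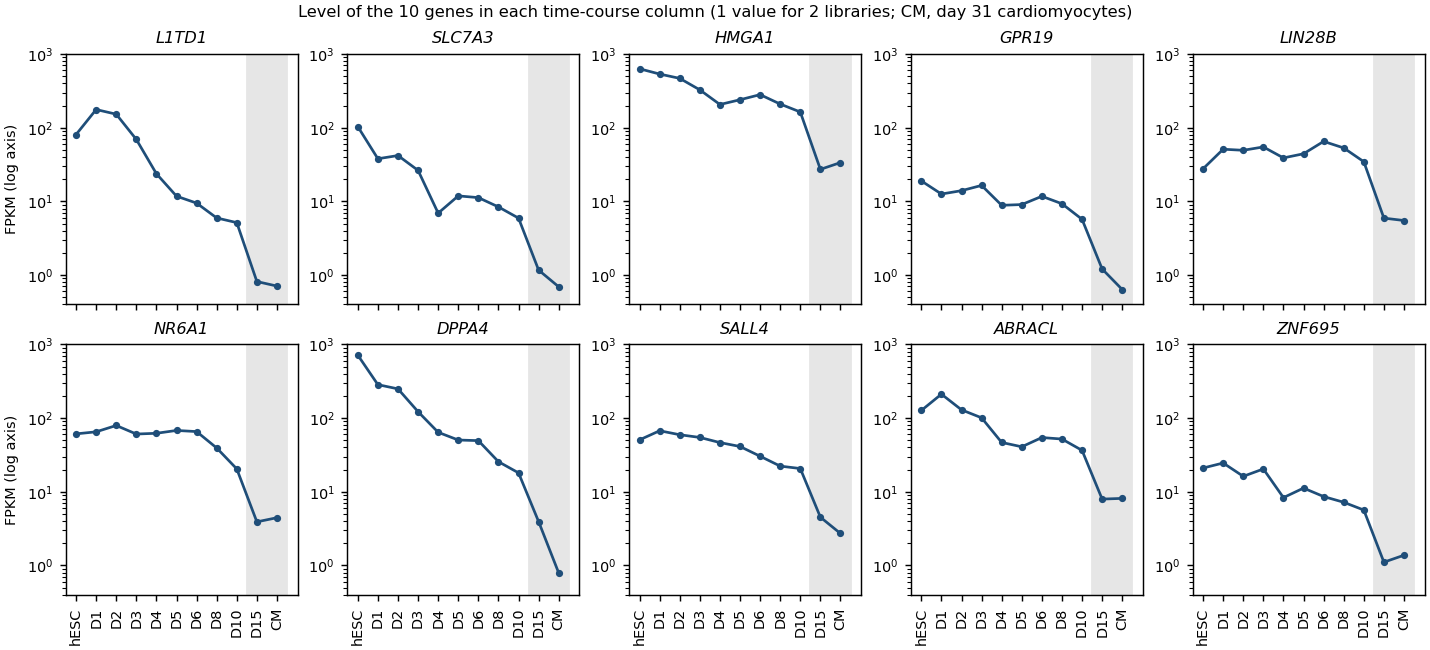
FPKM of each of the 10 genes (log axis) over the 11 columns in time order, 1 point per column; the grey band marks D15 and cardiomyocytes (CM). DPPA4 slopes down from hESC and L1TD1 from D1, NR6A1 stays level until D6, LIN28B is highest at D6, and all 10 are lower at D15 than at D10.

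A gene was counted as changed when log2(FPKM + 1) differed by at least 1, which is 2-fold for well expressed genes. At D15 all 10 genes were lower than at D10 by this measure (-1.60 for GPR19 to -2.54 for HMGA1), and in cardiomyocytes all 10 were lower than at D10 (-1.48 for ZNF695 to -3.41 for DPPA4). The rule fixes both directions. Of the 21715 genes that reached 1 FPKM in any column, 9.51% were lower at D15 than at D10 and 4.61% were lower in cardiomyocytes than at D10. Among the 7968 genes that met the floor, 1592 were lower at D15 and 435 in cardiomyocytes. At D15 against D10, 2066 of the 21715 genes were lower and 1373 higher, and after rescaling 966 were lower and 2565 higher. Rescaling moved the median of all 21715 genes at D15 against D10 by 0.22, and the values of the 10 genes then ran from -1.41 (GPR19) to -2.20 (HMGA1).

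The rule sets no direction within the early columns. At D10, 9 of the 10 genes were lower than in hESC by at least 1 and 0 higher, against 13.7% lower and 13.4% higher of the 21715 genes, and 15.3% and 7.12% of the 7968 genes that met the floor. The median of the 10 genes was -1.75 and that of all genes 0.00. LIN28B was the exception, with 34.6 FPKM at D10 against 27.7 in hESC (0.31 in log2(FPKM + 1)). The floor limits how far a gene could drop by D10, not whether it did.

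From D6 to D10 all 10 genes were lower at both steps, though by small amounts. NR6A1 (-1.64) and DPPA4 (-1.41) alone were lower by at least 1 at D10 than at D6, against 2.15% of all genes and 3.05% of those that met the floor. None of the 10 was higher, against 3.64% of all genes. The median of the 10 genes was -0.80 and that of all genes 0.04. GPR19 crossed the line with a pseudocount of 0.1 (-1.03, against -0.92).

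Step by step, D15 against D10 was the largest fall in log2(FPKM + 1) for 9 of the 10 genes, with D3 to D4 the larger for SLC7A3 (-1.79, against -1.68). The rule itself demands that D10 be at least 4 times D15, so this count is largely fixed by the choice of genes. Which gene is the exception depends on the scale. With a pseudocount of 0.1, and in plain FPKM ratios, SLC7A3 joins the others and DPPA4 is the exception, its cardiomyocyte step being larger (-2.18, against -2.17, with the pseudocount of 0.1). After rescaling, both genes are exceptions and 8 have their largest fall at D15. These scales were chosen after seeing the data. The earlier step with the most change was D3 to D4, where L1TD1 (-1.51), SLC7A3 (-1.79), ABRACL (-1.09) and ZNF695 (-1.20) were lower by at least 1, against 6.30% of all genes. NR6A1 differed by 0.03 at that step. In the first 24 hours SLC7A3 (-1.42) and DPPA4 (-1.33) were lower by at least 1 and L1TD1 was higher (1.12), against 11.1% of all genes lower and 12.0% higher, so the counts of the 10 genes lie near the background.

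**Figure D3:**
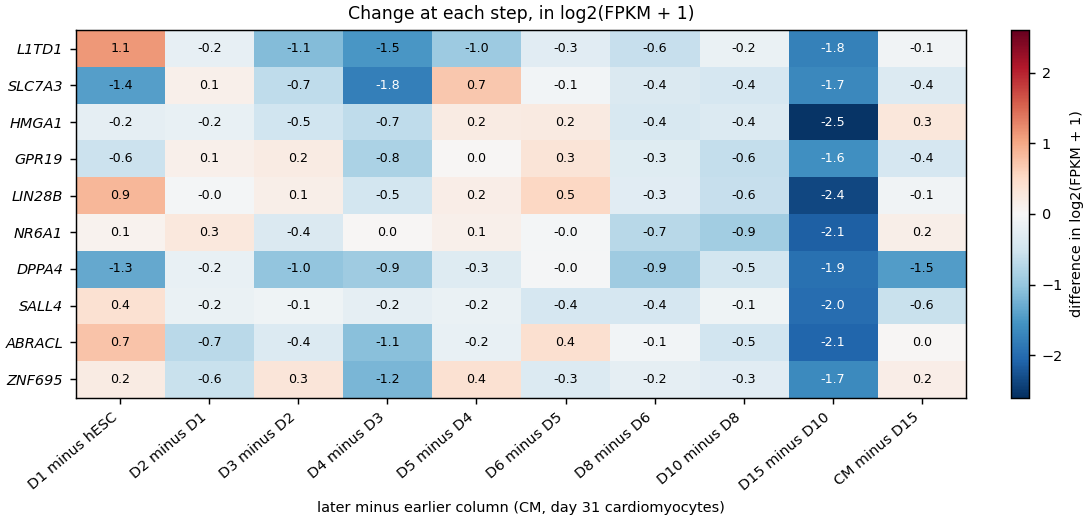
Difference in log2(FPKM + 1) between each column and the one before it, for the 10 genes (rows) and the 10 steps (columns); blue is lower, red is higher. The column for D15 minus D10 is blue for all 10 genes, from -1.60 for GPR19 to -2.54 for HMGA1, and D4 minus D3 is the next bluest for several of them. The rule demands the fall at D15.

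Between D15 and day 31 the levels differed little in log2(FPKM + 1), although this step also spans the purification. Cardiomyocytes were lower than D15 by at least 1 in DPPA4 alone, 0.789 FPKM against 3.92, and 0 genes were higher, where 4.07% of all genes were lower and 7.23% higher, and 1.67% and 10.4% of those that met the floor. The median of the 10 genes was -0.09 and that of all genes 0.12. The rule caps both columns, which limits how far a gene could rise, and the measure understates changes of low genes. In plain FPKM, GPR19 in cardiomyocytes stood at 52.6% of its D15 level and SLC7A3 at 59.3%. HMGA1 (33.7 FPKM in cardiomyocytes, 27.2 at D15), NR6A1, ABRACL and ZNF695 had slightly higher values in cardiomyocytes, a direction that turned for all 4 after rescaling. For all genes, 883 were lower and 1570 higher in cardiomyocytes than at D15, and 1722 and 652 after rescaling. Stromal markers summed to 1118 FPKM in cardiomyocytes and 3425 at D15, and their part in these differences was not tested.

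Of the list of 17 let-7 linked and oncofetal regulators, which holds LIN28B, HMGA1 and NR6A1, 13 were lower at D15 than at D10 and 0 higher (median -1.42), and 9 were lower in cardiomyocytes and 0 higher (median -1.13). Over all genes the medians were -0.04 and 0.00, and over the 7968 genes that met the floor -0.50 and -0.09. Of those 7968 genes, 1592 were lower at D15 and 435 in cardiomyocytes. After rescaling, 9 of the 17 regulators were lower at D15 and 9 in cardiomyocytes. Not all moved alike. TRIM71, a let-7 target of the ubiquitin ligase family, had 2.53 FPKM at D15 and 3.83 FPKM in cardiomyocytes, against 18.3 at D10. IGF2BP1, an RNA-binding protein that stabilises messenger RNAs, was at 28.3 and 41.5, against 57.8 at D10, and HMGA2 at 53.0 and 36.9, against 82.2. ARID3B, a DNA-binding protein, was at 8.42 and 9.51, against 25.9, and PRTG, a receptor of the early mesoderm, at 40.7 and 17.9, against 199. Of the 17, 16 met the floor from hESC to D10 and 5 met both conditions, the 3 members with LIN28A and TRIM71. The rule fixes these 5 as lower at D15 and in cardiomyocytes, so their part in the counts is no result.

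Of the list of 26 pluripotency genes, which holds DPPA4, SALL4 and L1TD1, 21 were already lower at D10 than in hESC and 1 higher (median -3.23). At D15, 8 were lower and 1 higher than at D10 (median 0.06), and in cardiomyocytes 6 and 1 (median -0.13). POU5F1, the central factor of the list, was at 1.17 FPKM at D10, against 1026 in hESC, and NANOG at 0.453% of its hESC level of 110 FPKM. DPPA4, SALL4 and L1TD1 met the floor at D10, where POU5F1 and NANOG did not, but the rule demands the floor of its members. Of the 26 genes, 9 met it in every column from hESC to D10. DNMT3B, the DNA methyltransferase of embryonic cells, met the floor and had 3.40 FPKM at D15 and 6.10 in cardiomyocytes, against 12.3 at D10. LIN28A, DPPA4, SALL4 and L1TD1 met both conditions, so the rule fixes them as lower after D10. Lists and members were chosen with such values known, so these counts are no independent support.

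Cell division genes were lower over the same step, and none of the lists below holds a member. Of 81 genes of mitosis, 47 were lower at D15 than at D10 (median -1.03) and 22 in cardiomyocytes (-0.82). Of 54 DNA replication genes the counts were 41 (-1.40) and 10 (-0.72), and of 28 genes of histone supply and the nuclear lamina 22 (-1.20) and 6 (-0.42). Of 25 repair genes they were 14 (-1.02) and 4 (-0.60), and of 35 cell cycle regulators 17 (-0.98) and 5 (-0.17), with 2 and 1 higher. Of 7 CDK inhibitors 0 were lower, and 2 and 4 were higher (medians 0.59 and 1.40). Among the 7968 genes that met the floor, 1592 were lower at D15 and 435 in cardiomyocytes, with medians of -0.50 and -0.09. After rescaling, the counts lower at D15 were 21 for mitosis, 31 for replication, 4 for repair, 8 for regulators and 12 for histone supply. Of all 21715 genes, 966 were lower at D15 after rescaling. Of the 81 mitosis genes 79 met the floor, and of the 54 replication genes 52, and 0 met both conditions of the rule. Of all 7968 genes that met the floor 0.188% met both, so these counts of 0 lie near the background. The part of the cell division genes in the course of the 10 genes was not tested.

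**Figure D4:**
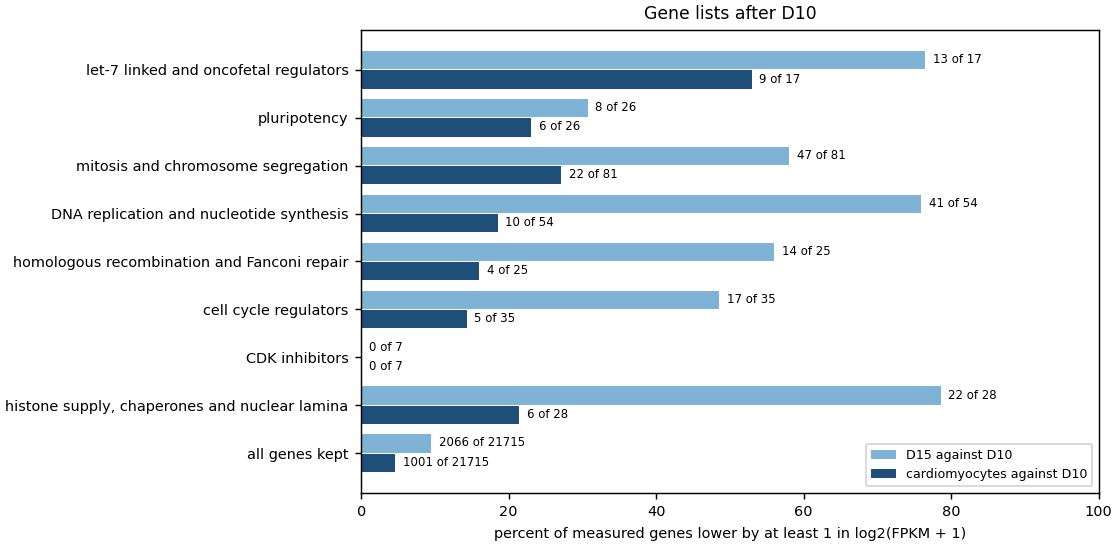
Share of each gene list that was lower by at least 1 in log2(FPKM + 1) than at D10, at D15 (light bars) and in cardiomyocytes (dark bars), with the counts beside the bars and all 21715 genes at the bottom. The let-7 linked list has the highest share in cardiomyocytes, 9 of 17. Of these, LIN28A, LIN28B, TRIM71, HMGA1 and NR6A1 met both conditions of the rule, which fixes them as lower.

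The sorted populations were not used to choose the genes. In the authors' deposited table of the D3 sort, 5 of the 10 genes were lower and 1 was higher in PMESO (ROR2-positive) than in ROR2-negative cells at a q-value under 0.05. Of the 7968 genes that met the floor, 9.81% were listed as lower and 11.9% as higher. HMGA1, LIN28B, SALL4 and ZNF695 were not listed. The table holds only genes with a q-value under 0.05, so a gene that is missing from it cannot be read as equal.

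SLC7A3 differed most at D3, with 10.1 FPKM in PMESO and 70.4 in ROR2-negative cells in the authors' deposited table (log2 ratio -2.80, q-value 0.000375). L1TD1 stood at 28.2 FPKM in PMESO and 102 in ROR2-negative cells (-1.86), DPPA4 at 65.8 and 155 (-1.24), ABRACL at 62.2 and 129 (-1.05) and GPR19 at 11.4 and 18.3 (-0.68), all with that same q-value. NR6A1 alone was higher, at 45.8 FPKM in PMESO and 33.6 in ROR2-negative cells (0.44, q-value 0.0295). Pluripotent markers went the same way as the first 5: POU5F1 stood at 87.3 FPKM in PMESO and 449 in ROR2-negative cells, SOX2 at 6.73 and 58.4, and NANOG had a log2 ratio of -2.78, while TDGF1 was not listed. Of the stromal markers 5 of 7 were higher in PMESO, and of the endoderm and liver markers 3 of 6. Of the 8 cardiomyocyte markers 2 were higher and 1 lower. Of the 4 neural markers 2 were lower, and of the 5 endothelial markers 1. Their part in the result was not tested.

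In the D4 sort, 6 of the 10 genes were lower and 2 higher in CMESO (PDGFRa-positive) than in PDGFRa-negative cells, by the authors' deposited table. Of the 7968 genes that met the floor, 10.7% were listed as lower and 11.9% as higher. L1TD1 stood at 13.7 FPKM in CMESO and 32.9 in PDGFRa-negative cells (log2 ratio -1.27), and ABRACL at 45.7 and 93.0 (-1.02). SALL4 (41.7 in CMESO and 65.0 in PDGFRa-negative cells, -0.64), DPPA4 (55.9 and 78.9, -0.50), NR6A1 (43.5 and 60.8, -0.48) and SLC7A3 (8.87 and 11.9, -0.43) were lower by less. GPR19 was higher, at 14.2 FPKM in CMESO and 5.09 in PDGFRa-negative cells (1.48), and so was LIN28B, at 41.2 and 26.1 (0.66). The q-values of the 8 listed genes lay between 0.000269 and 0.0103. HMGA1 and ZNF695 were not listed.

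Hence GPR19 and NR6A1 had opposite signs in the 2 sorts, which separate different cells on different days, and L1TD1, DPPA4, ABRACL and SLC7A3 were lower in the positive population of both. With the added demand of a 2-fold difference, 4 genes were lower and 0 higher in PMESO, and 2 were lower and 1 higher in CMESO. Of the 7968 genes that met the floor, 1.74% were then lower and 2.11% higher in PMESO, and 1.42% lower and 1.96% higher in CMESO. In the D4 sort POU5F1 stood at 9.30 FPKM in CMESO and 63.3 in PDGFRa-negative cells, SOX2 at 0.529 and 13.7, and TDGF1 at 8.25 and 29.6, and NANOG was not listed. Of the 8 cardiomyocyte markers 7 were higher in CMESO, and of the 7 stromal markers 5 were higher and 1 lower. Of the 6 endoderm and liver markers 2 were higher and 2 lower, and of the 4 neural markers 2 were lower. Their part in the D4 result was not tested.

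**Figure D5:**
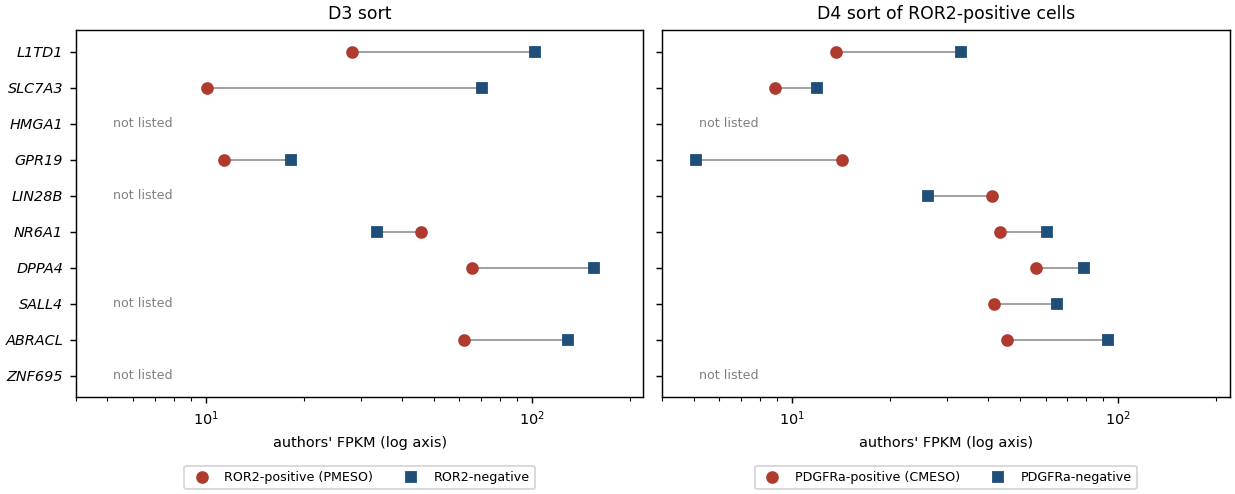
The authors' FPKM (log axis) of each gene in the positive population (red circles) and the negative population (blue squares) of the D3 sort, left, and the D4 sort, right; genes absent from a table are marked as not listed. At D3 the red circle lies left of the blue square for all listed genes but NR6A1, and at D4 for all but GPR19 and LIN28B.

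Promoters were compared next, since the 10 genes share a late drop. RefSeq promoters, from 250 bases before to 50 after a gene's start, were found for 7 of the 10 genes, with 9 entries among them; none was used for GPR19, SALL4 and SLC7A3. The motifs were searched on both strands in all 35116 promoters of 300 bases, which belong to 27305 genes. A gene counts as holding a motif where any of its entries does, for the members and for all genes alike. A CCAAT box (CCAAT) was present in 5 of the 7 genes, against 39.7% of all genes, and a GC box (GGGCGG) in 6, against 48.3%. By single promoters, each of them was in 6 of the 9 entries, against 34.6% for the CCAAT box and 45.0% for the GC box. An E2F core, searched as TTGGCGC, also as TTCCCGC and also as TTCGCGC, was in 0 of the 7 genes, against 13.1%. A CHR element, searched as TTTGAA and also as TTCGAA, was in ZNF695 alone, against 19.5%, and an E box (CACGTG) in LIN28B alone, against 8.77%. With 7 genes, none of the counts of these motifs can be told from the background with confidence, and no test was run. These are matches of letters and say nothing of binding.

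The 6 CCAAT boxes lay at varied distances, beginning at position -236 from the annotated start in DPPA4, -148 in L1TD1, -146 and 38 at the second and first start of HMGA1, -127 at the second start of LIN28B and -54 in ZNF695. The first LIN28B entry holds none. The promoters of L1TD1, HMGA1 and LIN28B are printed as examples chosen after the positions were seen, in GRCh38.p14 on the plus strand with the box in capitals, where it reads ATTGG because it lies on the opposite strand. For HMGA1 and LIN28B the second start is shown.
L1TD1, chr1:62194599-62194898: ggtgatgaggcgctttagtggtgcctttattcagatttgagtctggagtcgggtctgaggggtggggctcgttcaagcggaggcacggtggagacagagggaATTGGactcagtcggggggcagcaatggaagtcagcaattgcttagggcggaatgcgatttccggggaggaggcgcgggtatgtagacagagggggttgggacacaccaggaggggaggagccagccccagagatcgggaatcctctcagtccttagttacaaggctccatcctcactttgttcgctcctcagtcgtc
HMGA1, chr6:34238541-34238840: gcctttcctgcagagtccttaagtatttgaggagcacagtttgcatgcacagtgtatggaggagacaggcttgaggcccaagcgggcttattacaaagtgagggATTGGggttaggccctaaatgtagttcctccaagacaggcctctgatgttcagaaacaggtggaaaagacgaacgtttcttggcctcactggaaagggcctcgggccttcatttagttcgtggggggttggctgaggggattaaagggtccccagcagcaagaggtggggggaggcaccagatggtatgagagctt
LIN28B, chr6:104956857-104957156: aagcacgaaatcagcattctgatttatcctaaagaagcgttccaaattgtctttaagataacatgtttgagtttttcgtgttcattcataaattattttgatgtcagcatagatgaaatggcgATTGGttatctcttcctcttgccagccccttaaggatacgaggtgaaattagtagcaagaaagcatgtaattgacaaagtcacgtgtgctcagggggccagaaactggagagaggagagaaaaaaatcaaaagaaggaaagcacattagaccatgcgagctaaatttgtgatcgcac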

How the data were processed

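RNA depleted of ribosomal RNA was sequenced from 30 libraries in 15 groups, per the labels. Results rest on 3 tables. In that of the time course the authors give a single FPKM for each gene at each stage, a unit inferred from the pipeline and the values. Per the file headers, each sort table holds the authors' FPKM of both populations, the log2 of their ratio, the linear ratio (fold), a test score, a p-value and its q-value. The submitters' processing notes list Cufflinks, Bowtie2 2.1.0.0 and TopHat2 2.0.8b, with hg19 as the build. For the annotation and the scaling, no statement was found: not given in the sources used here. Sort loci were read as 0-based and printed 1-based: of 4648 D3 loci, 2171 then match a GENCODE 29 gene in length, and 63 otherwise.

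With 1 value a group, limma, meant for separate libraries, was not run and no time-course difference has a test. Differences are in log2(FPKM + 1), which understates changes of low genes. Genes of at least 1 FPKM in any column were kept. Nothing in the labels tells whether paired libraries came from separate cultures, so the authors' q-values may measure technical spread. The members and the 8 gene lists were chosen with earlier results of these data known. All members are named, with examples from the lists chosen after their values were seen. The rule was tried on simulated data with drops planted in well expressed genes, which does not show how it works near its floor and its ratio. Python 3.11.15 and pandas 2.3.3 were used. Motifs and let-7 matches were counted by letters alone. The alternatives tried were another pseudocount, rescaled columns, other filters, other thresholds and left-out columns.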

Additional observations from a re-analysis of the deposited data

How the results depend on the processing

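The make-up of the set depends on its thresholds and on scaling. It held 6 genes with a floor of 10 FPKM, 25 with a ratio of 3, 0 with a ratio of 8, 3 after rescaling the columns, 16 without D10, 38 with D15 alone as the late column and 21 with cardiomyocytes alone. A lower floor or ratio, or a left-out column, only loosens the rule, so all 10 had to stay in the set. It held 14 genes with a floor of 2 FPKM, 11 without hESC and 10 without D5. The counts of members higher or lower in the 5 comparisons stayed within 1.5 times under the alternatives run, but most of these counts could not have moved. The rule fixes those at D15 and in cardiomyocytes against D10, and the filters on low values and on protein-coding genes keep every member. The background counts, which could move, did not all stay within that range. With a pseudocount of 0.1, 3234 genes were higher at D15 than at D10, 2102 lower and 2909 higher in cardiomyocytes than at D10, 4759 higher at D10 than in hESC, 981 lower and 2590 higher at D10 than at D6, and 2690 lower and 2435 higher in cardiomyocytes than at D15. Rescaling gave 966 lower and 2565 higher at D15 than at D10, and 1722 lower and 652 higher in cardiomyocytes than at D15, and among the lists 21 (mitosis), 4 (repair), 8 (regulators) and 12 (histone supply) lower at D15. Among protein-coding genes alone, 875 were higher at D15 than at D10, 421 higher at D10 than at D6 and 483 lower in cardiomyocytes than at D15; with a filter of 5 FPKM the last count was 544. In the D3 sort 0 members were higher at a q-value under 0.01 or with a 2-fold demand, and in the D4 sort 1 was higher and 2 lower with that demand. In the shorter promoter window 0 members held a CHR element. The cause of these shifts was not tested. Leaving out each library was not run, because a column holds 2 libraries. No paired analysis was possible because the columns carry no replicate number. Without counts, the precision of the low values at D15 and in cardiomyocytes is unknown.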

Other observations

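The let-7 microRNAs themselves cannot be followed in these tables: the 12 let-7 and miR-98 entries of the time-course table are listed at 0 in all columns. Host transcripts of let-7 genes were measured, and were looked up after the members were known. LINC00478 is the long noncoding RNA whose locus holds let-7c. It stood at 0.549 FPKM in hESC, 3.12 at D4, 9.02 at D6, 23.2 at D8, 29.2 at D10, 17.5 at D15 and 23.1 in cardiomyocytes. MIRLET7DHG ranged from 2.99 FPKM in hESC to 7.29 at D4 and stood at 6.58 at D10, 5.44 at D15 and 7.03 in cardiomyocytes. A host transcript does not show the level of the mature microRNA.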
